A study of Mus musculus with 6 samples.

Results

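The genes described here were taken by name from a fixed list, chosen with earlier results of these data known. They are 10 immediate early transcription factors: Fos, Fosb and Fosl1, Jun and Junb, Egr1, Egr2 and Egr3, Ier2 and Atf3. They are 10 of the 57180 gene identifiers in the count table, and all 10 passed the filter on low counts. RNA was sequenced from mouse fibroblasts, the matrix-producing cells of connective tissue, in 6 bulk libraries. The cells came from lung, heart (cardiac) or tail tip, 3 origins in all. They received 1 of 2 adenoviruses: Ad-GFP, which carries a fluorescent protein and served as the control, and Ad-Cre, which carries the Cre recombinase and is labelled as the knockout of GATA4. Each of the 6 combinations had 1 library, so no group had a replicate. Every library, those with Ad-Cre included, is labelled wild type. Cells grew in DMEM with 10% serum and were harvested 48 h after transduction, and no strain, age or number of animals is named in the labels.

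Immediate early genes are switched on by growth factors, serum and stress within minutes, without new protein synthesis, from signals that pass through the MAP kinases to factors already bound at their promoters. Fos and Jun proteins pair through a leucine zipper to form AP-1, which binds the sequence TGACTCA. Fosl1, known as Fra-1, joins the same dimers without the activation domain of Fos, and Egr proteins are zinc finger factors that bind GC-rich sites. In fibroblasts, refeeding quiescent cells with serum is the classical way to induce this group, and AP-1 is known there as a regulator of matrix proteases and cell growth.

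Promoter windows of 6 of the 10 members were used, and 4 of the 6 are shown. Fos and Fosb are shown because they differed in opposite directions between lung and tail tip fibroblasts, Atf3 because it was highest in tail tip fibroblasts as Fos was, and Jun as their dimer partner, which was higher in lung than in cardiac fibroblasts. Each line gives the 250 bases before the transcription start in RefSeq (GRCm38.p6), 5′ to 3′ on the gene's strand. They lie on the plus strand for Fos at chr12:85473640-85473889, and on the minus strand for Atf3 at chr1:191183334-191183583, Fosb at chr7:19310046-19310295 and Jun at chr4:95052223-95052472. Capitals mark matches to TGACG, the core of the cyclic AMP response element that CREB and ATF proteins bind, to its variant TGACATCA, and to the TATA motif TATAAA.
Fos: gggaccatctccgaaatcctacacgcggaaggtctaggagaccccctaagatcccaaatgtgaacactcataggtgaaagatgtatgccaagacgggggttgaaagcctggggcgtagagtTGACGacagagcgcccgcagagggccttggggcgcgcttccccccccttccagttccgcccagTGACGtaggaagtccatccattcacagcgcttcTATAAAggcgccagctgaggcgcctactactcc
Atf3: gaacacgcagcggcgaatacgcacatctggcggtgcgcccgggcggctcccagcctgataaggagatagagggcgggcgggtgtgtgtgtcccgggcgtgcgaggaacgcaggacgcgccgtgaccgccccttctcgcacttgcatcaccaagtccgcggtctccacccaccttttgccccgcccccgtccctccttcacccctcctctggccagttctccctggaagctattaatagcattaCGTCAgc
Fosb: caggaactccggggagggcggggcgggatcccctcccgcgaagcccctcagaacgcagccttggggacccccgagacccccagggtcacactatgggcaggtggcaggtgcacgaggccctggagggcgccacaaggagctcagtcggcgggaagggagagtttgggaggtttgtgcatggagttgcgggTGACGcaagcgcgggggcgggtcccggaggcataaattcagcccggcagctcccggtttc
Jun: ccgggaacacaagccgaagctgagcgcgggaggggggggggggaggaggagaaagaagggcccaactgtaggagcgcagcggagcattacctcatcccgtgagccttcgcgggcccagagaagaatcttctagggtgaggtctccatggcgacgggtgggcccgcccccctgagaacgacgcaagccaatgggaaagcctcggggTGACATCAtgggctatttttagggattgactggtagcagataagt
The search used both strands, and the Atf3 match, on the other strand, reads CGTCA. The motif TGACG stood 129 and 66 bases before the start of Fos, 60 bases before that of Fosb and 7 bases before that of Atf3. Junb had it at 106 bases, and 3 of the 5 Egr2 windows had it on both strands. TGACG was in 17.8% of all 32851 promoter windows of this length, TATAAA in 12.4% and TGACATCA in 2.93%. The AP-1 site TGACTCA (4.46% of windows) and the full element TGACGTCA (1.55%), which contains TGACG, had no match in the member windows used. A CArG box, the element bound by serum response factor, was in 4 of the 5 Egr2 windows, which belong to alternative starts, and in 1.47% of all windows. The 3 Egr2 windows with TGACG overlap and hold the same CArG box and the same TGACG matches. Bases further than 250 from a start were not searched, and no window of Fosl1, Egr1, Egr3 or Ier2 was used. The chromosome of Egr1 was skipped for the members but not for the shares over all windows.

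Total counts ran from 26170316 to 33779069 per library, and between 22665 and 27267 genes had a read. Levels are given in CPM, read counts scaled to a common library size with TMM factors. Fibroblast markers summed to between 7814.5 and 23360 CPM, and all 9 had reads in every library. Gata4, the gene the knockout label names, was at 14.7 CPM in the lung Ad-GFP library and 19.2 in the lung Ad-Cre library, at 147 and 149 in the cardiac pair, and at 1 and 2 reads in the tail tip pair. It was not lower in any library labelled Ad-Cre, so "Ad-Cre" below means the library labelled so; whether these reads fall inside a deleted part was not tested. Markers of macrophages and leukocytes summed to 19.6 and 15.2 CPM in the lung pair, 1051.5 and 632 in the cardiac pair, and 5399 and 4571 in the tail tip pair. In bulk RNA, fewer cells of a type and less RNA per cell cannot be told apart.

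**Figure D1:**
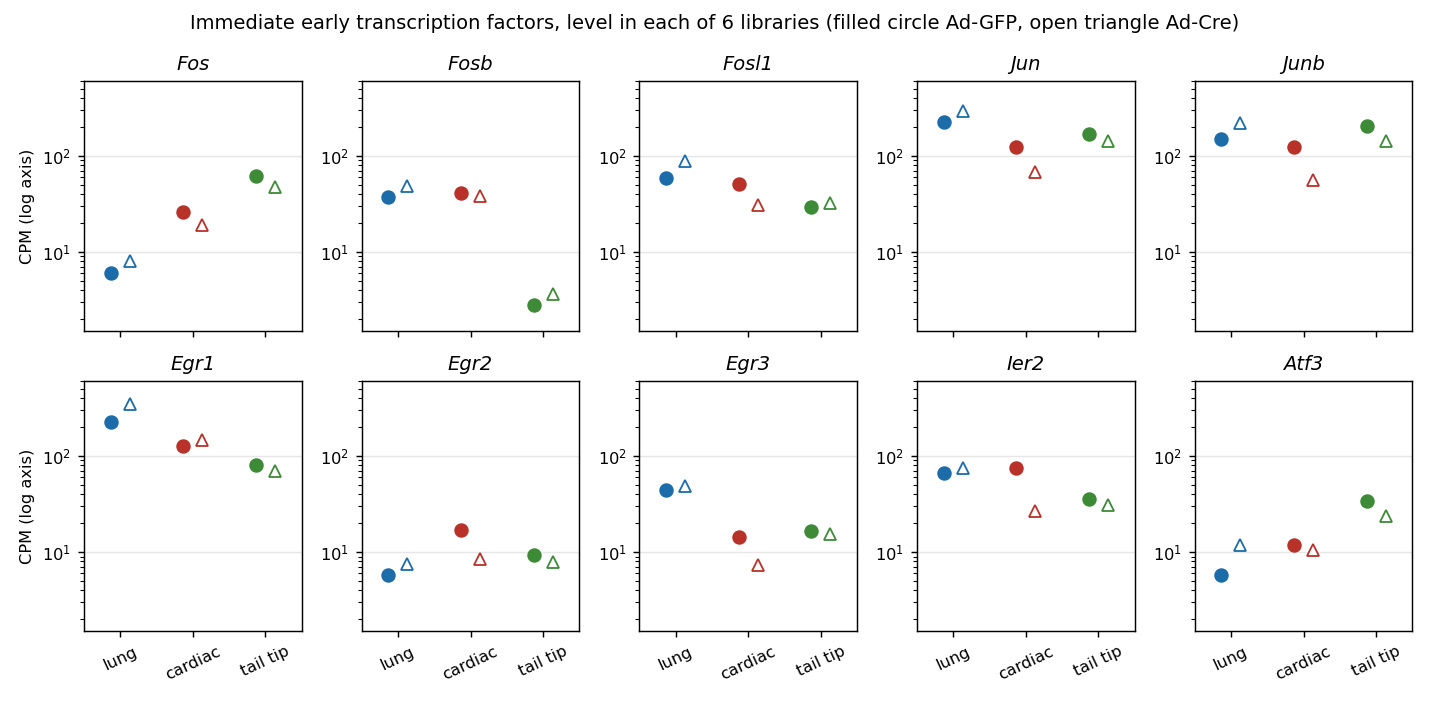
Level of each of the 10 genes in CPM (log axis) in the 6 libraries, by origin, with filled circles for Ad-GFP and open triangles for Ad-Cre, 1 library each. Fos rises from 6.04 CPM in a lung library to 61.9 in a tail tip library, Fosb drops to 2.77 in tail tip fibroblasts, and the 2 lung libraries hold the highest values of Jun, Egr1 and Egr3.

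Origins were compared with edgeR's quasi-likelihood test, in 1 additive model that used every library, with Benjamini-Hochberg adjustment over the 18143 genes tested. Each origin had 1 Ad-GFP and 1 Ad-Cre library, and nothing says how many cultures or animals they came from. The p-values therefore measure no spread between replicates. Their spread is how far the Ad-Cre to Ad-GFP difference varied between origins in this additive model. For all members but Egr1 that difference had opposite directions in lung and cardiac cells, as given below. Where 1 library was left out, its origin kept 1 library and added nothing to that spread. Calls over all genes also moved in such fits in the comparisons with cardiac cells. A call gained or lost in such a fit is therefore a description only. Between cardiac and lung fibroblasts, 1 member was higher in cardiac cells and 4 were lower, where 20.8% of all tested genes were called higher and 17.6% lower. The members' median log2 fold change was −0.73, against −0.01 over all tested genes. Between cardiac and tail tip fibroblasts, 2 members were higher and 2 lower in cardiac cells, beside 15.5% and 18% of all tested genes, and the medians were −0.10 and −0.06. Between lung and tail tip fibroblasts, 5 were higher and 2 lower in lung cells, beside 22.3% and 28.2% of all tested genes, with medians of 0.94 and −0.06. Members were called in both directions in every pair of origins.

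**Figure D2:**
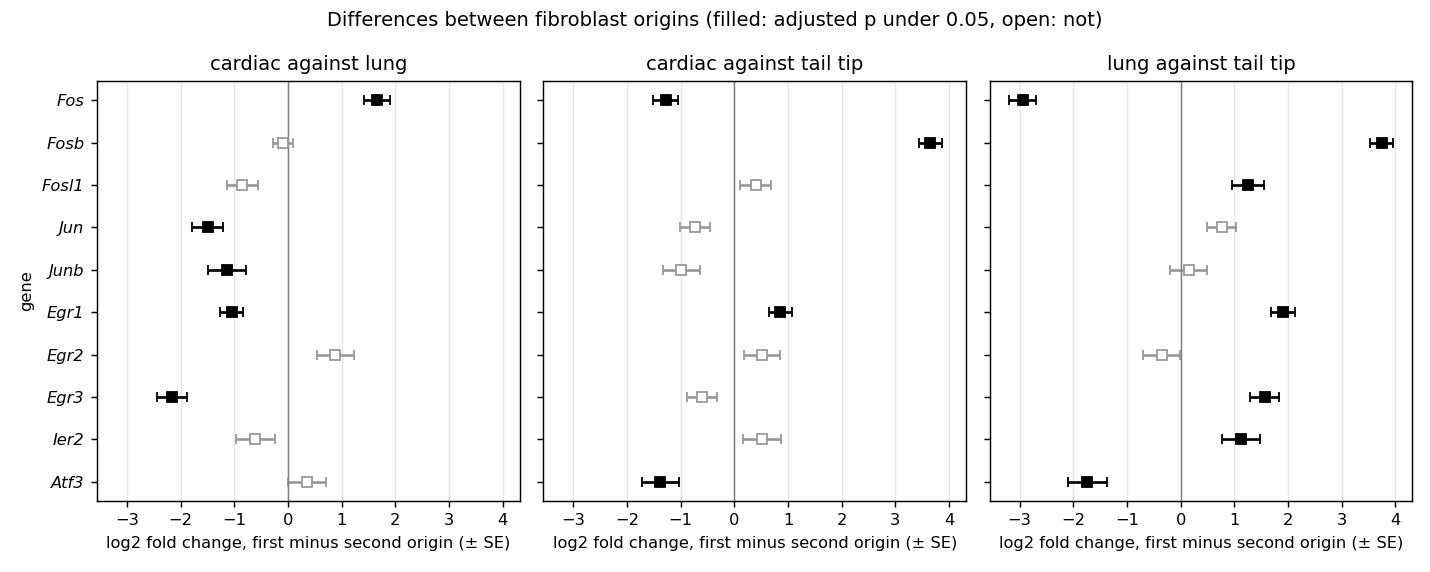
Fitted log2 fold change (± SE, x axis) of each gene (y axis) in the 3 comparisons of origins, with filled squares where the adjusted p is under 0.05. Fos and Fosb lie on opposite sides of 0 in both comparisons with tail tip fibroblasts, and Jun, Junb, Egr1 and Egr3 lie below 0 in cardiac against lung fibroblasts.

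Fos, which binds DNA only as a dimer with a Jun protein or another partner, stood at 6.04 and 7.99 CPM in the lung Ad-GFP and Ad-Cre libraries, 26.2 and 18.9 in the cardiac pair, and 61.9 and 47.5 in the tail tip pair. No origin overlapped another, and the order was tail tip, then cardiac, then lung. Reads ranged from 176 to 1967, so counting error was small beside the 10.2-fold range. Fos was 7.69-fold higher in tail tip than in lung fibroblasts (log2 fold change, lung minus tail tip, −2.94 ± 0.25 SE, adjusted p = 0.000104). It was also 3.17-fold higher in cardiac than in lung cells (1.66 ± 0.25, adjusted p = 0.00227) and 2.43-fold higher in tail tip than in cardiac cells (cardiac minus tail tip −1.28 ± 0.24, adjusted p = 0.0062). These 3 differences kept their call without any 1 library. The summed macrophage and leukocyte markers had the same order over the 3 origins as Fos, and their part in the result was not tested.

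Fosb, the paralogue known for long-lived spliced forms in neurons, had the reverse pattern at tail tip. It was at 37.4 and 48.6 CPM in the lung pair, 41.0 and 38.5 in the cardiac pair, and 2.77 and 3.63 in the tail tip pair, where it had 88 and 120 reads. The lung and cardiac libraries overlapped, and both tail tip libraries lay far below all others. Fosb was 13.4-fold higher in lung than in tail tip fibroblasts (3.75 ± 0.21, adjusted p = 1.82e-05) and 12.5-fold higher in cardiac than in tail tip fibroblasts (3.65 ± 0.21, adjusted p = 4.82e-05). Both calls held without any 1 library. Between cardiac and lung cells the difference was −0.10 ± 0.19 (adjusted p = 0.712), which the test did not call.

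Fosl1, the Fra-1 gene, was at 58.2 and 88.2 CPM in the lung pair, 50.4 and 30.7 in the cardiac pair, and 29.4 and 32.0 in the tail tip pair. Lung lay above both other origins, and the cardiac and tail tip libraries overlapped. It was 2.38-fold higher in lung than in tail tip fibroblasts (1.25 ± 0.29, adjusted p = 0.00992). The cardiac values did not pass the test against lung (−0.85 ± 0.29, adjusted p = 0.0566) or tail tip (0.40 ± 0.29, adjusted p = 0.33). The first passed without the lung Ad-GFP library (−1.34), without the cardiac Ad-GFP library (−1.45) and without either tail tip library (−0.89 each), and the second without the cardiac Ad-Cre library (0.91). The first also passed with DESeq2 (adjusted p = 0.0216), limma-voom (adjusted p = 0.0238), edgeR with origin as the only term (adjusted p = 0.0433), edgeR with GC offsets (adjusted p = 0.0144) and edgeR with no filter on low counts (adjusted p = 6.93e-05).

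Jun, which can pair with itself or with any Fos protein, was at 225 and 296 CPM in the lung pair, 124 and 67.2 in the cardiac pair, and 169 and 144 in the tail tip pair. The 3 origins did not overlap. Jun was 2.82-fold higher in lung than in cardiac fibroblasts (cardiac minus lung −1.50 ± 0.28, adjusted p = 0.00644). Tail tip cells stood between them and were called apart from neither lung (0.76 ± 0.28, adjusted p = 0.0549) nor cardiac cells (−0.73 ± 0.28, adjusted p = 0.0819). The lung difference passed without the lung Ad-GFP library (1.20) or without either cardiac library (0.72 and 0.74), and the cardiac one passed without the cardiac Ad-GFP library (−1.31) or either lung library (−0.81 each). The lung difference also passed with DESeq2 and with its size factors in edgeR (0.77 each), with limma-voom (0.73), with GC offsets (1.11) and with no filter on low counts (0.74), and the cardiac one with DESeq2 (−0.72), limma-voom (−0.75) and no filter (−0.80).

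Junb, a Jun paralogue often found to restrain proliferation, was at 150 and 217 CPM in the lung pair, 123 and 56.0 in the cardiac pair, and 204 and 142 in the tail tip pair. Lung and tail tip libraries overlapped, and both cardiac libraries lay below them. Junb was 2.21-fold higher in lung than in cardiac fibroblasts (cardiac minus lung −1.14 ± 0.35, adjusted p = 0.0401), but the call was lost without the lung Ad-Cre library (−0.46), with limma-voom (−1.09) and with origin as the only term (−1.04). Cardiac against tail tip did not pass (−0.99 ± 0.35, adjusted p = 0.0644). It passed in 5 of the 6 fits that left out 1 library, at −1.07 without either lung library, −1.68 without cardiac Ad-GFP, −0.48 without cardiac Ad-Cre and −1.12 without tail tip Ad-Cre, and it passed with DESeq2 (−0.98) and with no filter on low counts (−1.05). Lung and tail tip values differed by 0.15 ± 0.34 (adjusted p = 0.74), a difference that turned to −0.61 without lung Ad-Cre and passed at 0.76 without lung Ad-GFP.

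Egr1, the zinc finger factor that responds to almost any mitogen, was at 225 and 349 CPM in the lung pair, 128 and 147 in the cardiac pair, and 80.8 and 69.5 in the tail tip pair. The origins did not overlap, in the order lung, cardiac, tail tip, which is the reverse of the order for Fos. Egr1 was 3.75-fold higher in lung than in tail tip fibroblasts (1.91 ± 0.22, adjusted p = 0.000376) and 2.07-fold higher in lung than in cardiac cells (cardiac minus lung −1.05 ± 0.21, adjusted p = 0.00811). It was 1.81-fold higher in cardiac than in tail tip cells (0.86 ± 0.21, adjusted p = 0.0198), a call that was lost without the tail tip Ad-Cre library (0.53).

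Egr2, best known from Schwann cell myelination, was last of the 10 members per length in both lung libraries. It was at 5.80 and 7.45 CPM in the lung pair, 17.0 and 8.45 in the cardiac pair, and 9.25 and 7.98 in the tail tip pair. Cardiac lay above lung without overlap, mainly through the Ad-GFP library. No origin comparison passed, with 0.88 ± 0.34 for cardiac minus lung (adjusted p = 0.0824), 0.52 ± 0.34 for cardiac minus tail tip (adjusted p = 0.272) and −0.35 ± 0.34 for lung minus tail tip (adjusted p = 0.416). The first passed without lung Ad-Cre (1.34) or cardiac Ad-Cre (1.40), with limma-voom (0.92) and with no filter on low counts (0.83), and the second passed without cardiac Ad-Cre (1.02) and turned to −0.11 without cardiac Ad-GFP.

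Egr3, a close relative of Egr1, was at 44.6 and 49.2 CPM in the lung pair, 14.3 and 7.37 in the cardiac pair, and 16.4 and 15.6 in the tail tip pair. Both lung libraries stood above all others. It was 4.47-fold higher in lung than in cardiac fibroblasts (cardiac minus lung −2.16 ± 0.28, adjusted p = 0.00132) and 2.95-fold higher in lung than in tail tip fibroblasts (1.56 ± 0.27, adjusted p = 0.00273). Both calls held without any 1 library. The cardiac and tail tip values did not pass (−0.60 ± 0.28, adjusted p = 0.138). They passed without cardiac Ad-GFP (−1.18) and without either lung library (−0.67 each), and with no filter on low counts (−0.66).

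Ier2, a small nuclear protein without a classical DNA-binding domain, was at 66.2 and 75.0 CPM in the lung pair, 74.9 and 26.9 in the cardiac pair, and 35.9 and 30.6 in the tail tip pair. The 2 cardiac libraries spanned almost the whole range. Ier2 was 2.17-fold higher in lung than in tail tip fibroblasts (1.12 ± 0.36, adjusted p = 0.0341), a call lost without the lung Ad-Cre library (0.53) and with origin as the only term (1.09). The cardiac comparisons did not pass, at −0.60 ± 0.36 against lung (adjusted p = 0.225) and 0.52 ± 0.36 against tail tip (adjusted p = 0.311). Cardiac against lung passed at −1.42 without cardiac Ad-GFP at −0.67 without either tail tip library and at −0.65 with no filter on low counts, and cardiac against tail tip passed at 1.17 without cardiac Ad-Cre.

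Atf3, the stress-induced member of the ATF family that pairs with Jun proteins, was at 5.80 and 11.8 CPM in the lung pair, 11.9 and 10.4 in the cardiac pair, and 33.9 and 23.9 in the tail tip pair. Both tail tip libraries lay above all others, and lung and cardiac overlapped. Atf3 was 3.34-fold higher in tail tip than in lung fibroblasts (lung minus tail tip −1.74 ± 0.36, adjusted p = 0.00609). That value moved to −1.09 without lung Ad-GFP and to −2.48 without lung Ad-Cre and was called in both cases. It was 2.60-fold higher in tail tip than in cardiac cells (cardiac minus tail tip −1.38 ± 0.35, adjusted p = 0.0223), which was lost without the tail tip Ad-GFP library (−0.91). Cardiac minus lung was 0.36 ± 0.36 (adjusted p = 0.459) and passed without lung Ad-Cre (1.09) or cardiac Ad-Cre (0.55). As for Fos, macrophage and leukocyte markers were highest in the tail tip libraries, with 11 of 11 lower in lung than in tail tip cells and 10 of 11 lower in cardiac than in tail tip cells.

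Levels of different genes can be compared only per length, here as CPM per kilobase of exons. Jun and Junb took the first 2 places in the lung and tail tip libraries, with 70.7 and 65.3 CPM per kilobase in lung Ad-GFP and 52.9 and 88.6 in tail tip Ad-GFP. Egr1 was at rank 3 in both lung libraries and rank 1 in cardiac Ad-Cre (32.8 CPM per kilobase), but at ranks 5 and 6 in the tail tip pair. Fos moved from rank 9 in lung to rank 6 in cardiac and rank 3 in tail tip fibroblasts, from 2.57 CPM per kilobase in lung Ad-GFP to 26.3 in tail tip Ad-GFP. Fosb was at rank 7 in the lung and cardiac libraries and last in both tail tip libraries, at 0.443 and 0.581 CPM per kilobase. Among Fos, Fosb and Fosl1, the highest level per length was therefore that of Fosl1 in every lung and cardiac library and of Fos in the tail tip libraries. Fosl2, a Fos gene that is not a member, was not ranked. These ranks are a description of single libraries and were not tested.

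Across the 6 libraries, likeness of pattern was measured as the root mean square difference of log2 CPM after each gene was centred on its own mean. Among the members the closest pairs were Fosl1 with Ier2 (0.28), Jun with Junb (0.29) and Jun with Egr3 (0.37). Among 10507 other genes, genes close to Fos were Ube2l6 (0.16) and P3h3 (0.17), each highest in the tail tip libraries. Those closest to Egr1 were Card6 and Cdkn2aipnl (0.13 each) and Helq (0.14), and to Jun were Slc9a5 (0.11), C1qtnf12 (0.12) and Samd14 (0.15). Rad50 and Rps10 (0.10 each) were close to Fosl1, and those closest to Atf3 were Nrbp2 (0.18), Tnip1 and Vamp1 (0.19 each). With 6 values per gene, such closeness is a description only.

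The second question of the design was how, in each origin, the Ad-Cre library compares with its Ad-GFP control. As an effect common to the 3 origins, 0 of 10 members were called, where 0% of all tested genes were called, and 0 members had an unadjusted p under 0.05. The lowest unadjusted p of a member in edgeR's quasi-likelihood test was 0.134 (Ier2, −0.50 ± 0.30). Junb had −0.38 ± 0.29, Fosb 0.21 ± 0.16 and Egr1 0.21 ± 0.17. DESeq2 and limma-voom also called 0 members, and over all genes 367 had an unadjusted p under 0.05 with 0 called by edgeR, 3 by DESeq2 and 0 by limma-voom.

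Within an origin, 2 libraries can be compared only as a ratio, with an exact conditional binomial 95% interval that covers counting error and nothing else. In lung fibroblasts all 10 members were higher in the Ad-Cre library, where 52.9% of all tested genes had a log2 ratio above 0. All 10 intervals lay above 1. How many of all tested genes had an interval clear of 1 was not counted, in this origin or the others. The members' median log2 ratio was 0.40, against 0.03 over all tested genes. The ratios ran from 1.11 for Egr3 and 1.13 for Ier2 through 1.32 for Fos, 1.44 for Junb and 1.55 for Egr1 to 2.04 (1.68 to 2.47) for Atf3. Atf3 alone was at least 2-fold higher, beside 4.87% of all tested genes, and 0 members were 2-fold lower, beside 2.82%.

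In cardiac fibroblasts 9 of 10 members were lower in the Ad-Cre library, where 49.3% of all tested genes were below 0, and the median log2 ratio was −0.80 against 0.00 over all tested genes. Ier2 had a ratio of 0.360 (0.332 to 0.390), from 2436 reads to 823. Junb had 0.456 (0.430 to 0.483), Egr2 0.498 (0.428 to 0.578), Egr3 0.515 and Jun 0.540. These 5 were joined by Fosl1 (0.610) and Fos (0.721), while the intervals of Atf3 (0.880) and Fosb (0.938) held 1. Egr1 was the exception, at 1.15 (1.10 to 1.20). Ier2, Junb and Egr2 were at least 2-fold lower, beside 9.07% of all tested genes, and 0 members were 2-fold higher, beside 11.3%. With Atf3 in lung cells this makes 4 members past 2-fold in an origin, a count that was 2 with DESeq2 size factors, because Atf3 and Egr2 lie close to the limit.

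In tail tip fibroblasts 8 of 10 members were lower in the Ad-Cre library, where 47.6% of all tested genes were below 0, with a median log2 ratio of −0.22 against 0.01. In 6 genes the intervals lay below 1: Junb (0.698), Atf3 (0.706), Fos (0.767), Ier2 (0.853), Jun (0.855) and Egr1 (0.860). The intervals of Egr2 (0.862), Egr3 (0.947), Fosl1 (1.09) and Fosb (1.31) held 1. No member reached 2-fold, beside 1.53% of all tested genes higher and 1.58% lower. Over the 3 origins, 0 of 10 members had the same direction in all, beside 21% of all tested genes. All but Egr1, 9 in number, were higher in lung and lower in cardiac cells, a pattern not counted over all tested genes.

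**Figure D3:**
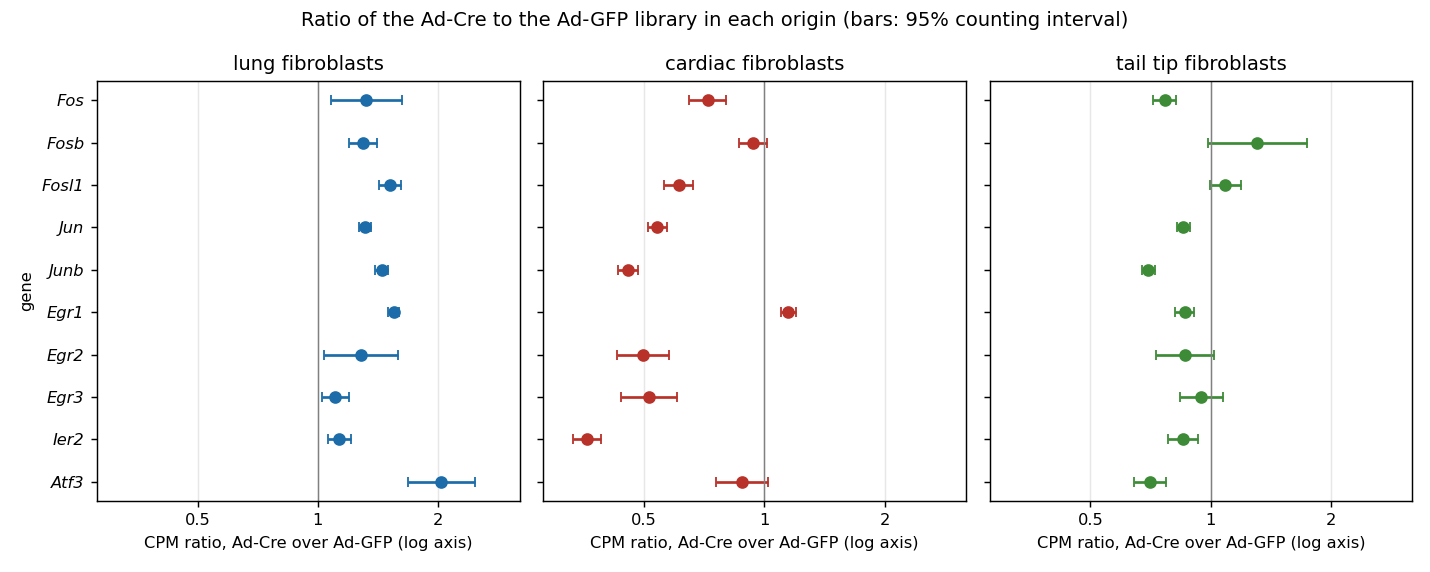
Ratio of the Ad-Cre to the Ad-GFP library (x axis, log scale) for each gene (y axis) in each origin, with 95% counting intervals and no replicates. All 10 genes lie above 1 in lung fibroblasts, 9 of 10 below 1 in cardiac fibroblasts and 8 of 10 below 1 in tail tip fibroblasts.

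The ratio moved with GC content within each pair of libraries. The members' transcripts had between 51.35% and 62.58% GC. In the lung pair the median log2 ratio of all tested genes went from −0.11 in genes of up to 40% GC to 0.23 in those above 60%. In the cardiac pair it went the other way, from 0.27 to −0.35, and in the tail tip pair from 0.09 to −0.12. After the median of its GC band was subtracted, the members' median was 0.29 in lung cells, with 9 above 0 and Ier2 at −0.05. It was −0.61 in cardiac cells, with 8 below 0 and Egr1 (0.39) and Fosb (0.10) above. In tail tip cells it was −0.18, with 8 below 0. The count of members past 2-fold was then 1, with Ier2 at −1.12 in cardiac cells.

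**Figure D4:**
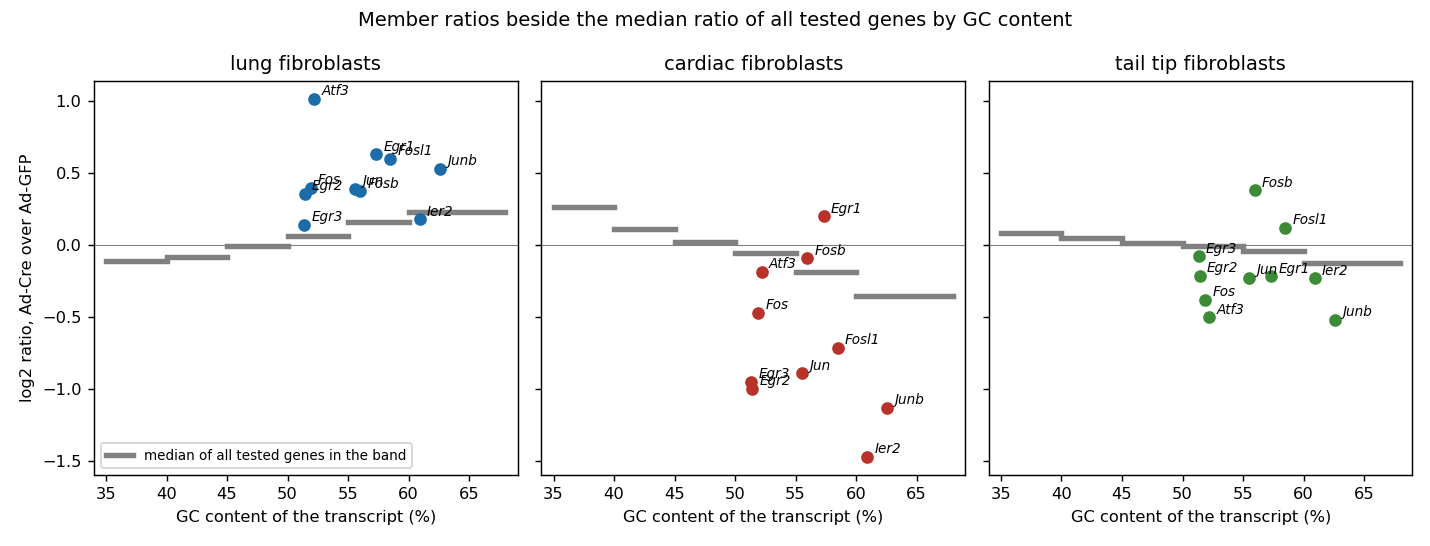
Log2 ratio of the Ad-Cre to the Ad-GFP library of each gene against the GC content of its longest transcript, by origin, with grey bars for the median of all tested genes in each GC band. The bars climb with GC content in lung fibroblasts and fall in cardiac and tail tip fibroblasts, and most of the 10 genes lie beyond the bar of their band.

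Heat shock chaperones, another stress-responsive group, also differed within the cardiac pair. They summed to 5478.7 CPM in cardiac Ad-GFP and 3058.1 in cardiac Ad-Cre, against 4028.5 and 3841.9 in the lung pair and 1620.6 and 1625.7 in the tail tip pair. The inducible Hsp70 genes Hspa1a and Hspa1b, near-identical copies whose reads may be split between them, went from 385 to 3.57 CPM and from 676 to 17.0 CPM in the cardiac pair. Epithelial markers summed to 7.53 CPM in cardiac Ad-GFP and 62.5 in cardiac Ad-Cre, and mesothelial markers to 61.4 and 132, although Lrrn4 of that list went from 32.2 to 9.43 CPM. Fibroblast markers had a median log2 ratio of −0.79 in that pair, with Pdgfra and Pdgfrb in the other direction (268 to 408 CPM and 263 to 416 CPM). The part of these differences in the lower Ier2, Junb, Egr2, Egr3 and Jun values of cardiac Ad-Cre was not tested.

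Genes around the members in the same pathway were counted the same way, and their counts stand beside the shares of all tested genes: 20.8% higher and 17.6% lower in cardiac against lung, 15.5% and 18% in cardiac against tail tip, and 22.3% and 28.2% in lung against tail tip. Of 13 other immediate early transcription factors, 5 were higher and 3 lower in cardiac than in lung fibroblasts, 3 and 1 in cardiac against tail tip, and 5 and 3 in lung against tail tip. The Krüppel-like factor genes Klf4 and Klf2 were higher in cardiac than in lung cells (2.91 ± 0.39, adjusted p = 0.00144, and 2.28 ± 0.20, adjusted p = 0.000213), opposite in direction to Egr1. The nuclear receptor Nr4a1 was higher in lung than in tail tip cells (1.58 ± 0.25, adjusted p = 0.00162). Of 24 other immediate early genes, 6 were higher and 8 lower in cardiac than in lung cells, 9 were higher and 1 lower in cardiac than in tail tip cells, and 13 were higher and 6 lower in lung than in tail tip cells. Phlda1 (3.15 ± 0.44, adjusted p = 0.000948) and Hbegf, which encodes an EGF receptor ligand (2.11 ± 0.27, adjusted p = 0.0006), led the higher ones in lung against tail tip. Within the cardiac pair the median log2 ratio of these 2 lists was −0.45 and −0.35, against 0.00 over all tested genes. In each list 3 genes were at least 2-fold lower, beside 9.07% of all tested genes. At least 2-fold higher were 0 and 1, beside 11.3%.

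Among the other AP-1 and dimer partners, Fosl2, the Fra-2 gene, was lower in cardiac than in tail tip (−1.73 ± 0.15, adjusted p = 0.000181) and in lung (0.502-fold, adjusted p = 0.00195), and lower in lung than in tail tip cells (−0.73 ± 0.14, adjusted p = 0.00434). Jund, the Jun gene that is usually expressed without induction, was lower in lung than in tail tip fibroblasts (−1.56 ± 0.49, adjusted p = 0.0331). Mafk, a small Maf protein, was higher in cardiac than in tail tip (1.77 ± 0.16, adjusted p = 0.000257). Of the 11 genes in this list, 2 were higher and 1 lower in cardiac against lung, 2 and 3 in cardiac against tail tip, and 3 and 4 in lung against tail tip. Nab2, a corepressor that binds Egr proteins and is itself an Egr target, was higher in lung than in cardiac (cardiac minus lung −1.58 ± 0.23, adjusted p = 0.00198) and in tail tip cells (1.67 ± 0.23, adjusted p = 0.000828), the same 2 directions as Egr1 and Egr3. Nab1 had smaller differences in the same directions (−0.57 ± 0.16, adjusted p = 0.0304, and 0.59 ± 0.16, adjusted p = 0.021).

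Upstream of the members, 5 of 18 factors, receptors and kinases were higher and 5 lower in cardiac than in lung cells, 4 and 2 in cardiac against tail tip, and 9 and 3 in lung against tail tip. The EGF receptor gene Egfr was higher in lung than in tail tip cells (1.47 ± 0.14, adjusted p = 0.000177), and the PDGF receptor gene Pdgfrb was lower there (−1.41 ± 0.18, adjusted p = 0.000713). Of 12 inhibitors that MAP kinase signalling induces against itself, 7 were higher and 0 lower in cardiac than in tail tip, and 6 were higher and 0 lower in lung than in tail tip fibroblasts, with medians of 1.02 and 0.82. The other 5 and 6 did not pass the test, among them Spred3, at 33.8 and 39.2 CPM in the lung pair, 24.9 and 36.1 in the cardiac pair and 37.6 and 39.8 in the tail tip pair. The phosphatase genes Dusp5 (4.07 ± 0.29, adjusted p = 4.6e-05) and Dusp4 (1.91 ± 0.18, adjusted p = 0.000139) were higher in lung than in tail tip, as Egr1 and Fosb were. Against lung, cardiac cells had 3 of the 12 higher, among them Spry1 (3.10 ± 0.33, adjusted p = 0.000559), and 3 lower, among them Dusp5 (−0.86 ± 0.26, adjusted p = 0.0374).

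Among genes known as AP-1 targets, the matrix proteases Mmp3, Mmp9 and Mmp13 were highest in tail tip cells. Mmp10, a matrix protease of the same list, was not. It was at 68.7 and 33.3 CPM in the lung pair, 3.17 and 2.65 in the cardiac pair, and 36.6 and 31.8 in the tail tip pair. The stromelysin gene Mmp3 was lower in lung than in tail tip (−4.01 ± 0.31, adjusted p = 6.41e-05), as were the collagenase Mmp13 (−3.73 ± 0.46, adjusted p = 0.000513), the gelatinase Mmp9 (−4.33 ± 0.39, adjusted p = 0.000123) and the chemokine Ccl2 (−3.31 ± 0.24, adjusted p = 4.76e-05). Mmp3, Mmp9 and Mmp13 were also lower in cardiac than in lung cells, with Mmp3 at −3.95 ± 0.33 (adjusted p = 0.000188), so their order was tail tip, lung, cardiac. That is the order of neither Fos nor Egr1, but it is that of Fosl2. Fosl2 was at 331 and 334 CPM in the lung pair, 177 and 157 in the cardiac pair, and 555 and 550 in the tail tip pair. Whether these orders are linked was not tested. Of the 12 targets, 1 was higher and 6 lower in cardiac against lung, 4 and 5 in cardiac against tail tip, and 4 and 5 in lung against tail tip. Macrophages also express Mmp9 and Ccl2, and the macrophage marker values given above stand beside these differences.

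Among 8 genes of the integrated stress response, the pathway of Atf4 in which Atf3 is a target, 6 were higher and 2 lower in lung than in tail tip fibroblasts, opposite to Atf3. Asns, which encodes asparagine synthetase, was higher in lung (1.34 ± 0.15, adjusted p = 0.000336), and Sesn2 was lower (−1.52 ± 0.17, adjusted p = 0.000385). Gdf15, a secreted stress cytokine, was lower in lung (−4.50 ± 0.68, adjusted p = 0.00139), in the direction of Atf3. It had 1 and 11 reads in the lung pair, against 156 and 177 in the tail tip pair, so the size of this change is uncertain. In cardiac against lung cells 2 of the 8 were higher and 2 lower, and in cardiac against tail tip 4 were higher and 0 lower.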

How the data were processed

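The deposited table held whole-number read counts per Ensembl gene, made by the authors without normalization. The submitters' processing notes name STAR 2.0.7 and the mm39 build. The counter, annotation and strand setting were not given in the sources used here, so reads of overlapping antisense genes may be mixed, and near-identical copies are uncertain. Columns were matched to samples by the names in the labels. The labels name a matrix with another title than that of the deposited table, so the match rests on the column names alone. Symbols, exon lengths and GC content came from GENCODE M21 (GRCm38), which matched 51884 of 57180 identifiers.

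The count test was edgeR 4.0.16 under R 4.3.3 (filterByExpr with a minimum count of 10, TMM factors between 0.964 and 1.03, robust quasi-likelihood fit). The additive model of origin and virus over 6 libraries left 2 residual degrees of freedom, with a median prior of 5.12 and a common dispersion of 0.0455. Genes were called at an adjusted p of 0.05 (Benjamini-Hochberg). No paired test was made within an origin, where each group has 1 library. Log2 ratios used a prior count of 2. DESeq2 1.42.0, limma 3.58.1, other scalings and filters, libraries left out and GC offsets were alternatives. Intervals cover counting error only, since reads without molecular identifiers are not independent molecules.

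The members and the other lists were chosen with earlier results of these data known. All 10 members are described. Of each other list, up to 4 genes averaging 1 CPM or more, those of largest absolute change, could be named per comparison, besides Hspa1a and Hspa1b. Patterns most like a member's are the 3 closest named genes that average 5 CPM or more, of which some are not reported here.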

Additional observations from a re-analysis of the deposited data

Results flagged for a closer look

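For 9 of the 10 genes the Ad-Cre to Ad-GFP ratio moved one way in lung fibroblasts and the opposite way in another origin. Both counting intervals were clear of 1. What share of all tested genes meets this rule was not computed, so the count is not read as particular to these genes. Each group has 1 library, so these differences between origins were not tested against replicates. Against cardiac fibroblasts, the lung ratio was 3.168 times as high for Junb, 3.148 times for Ier2, 2.578 times for Egr2, 2.486 times for Fosl1, 2.433 times for Jun, 2.144 times for Egr3 and 1.834 times for Fos. Against tail tip fibroblasts, it was 2.886 times as high for Atf3 and 1.803 times for Egr1. The GC trend also ran in opposite directions in lung and cardiac cells, and its part in these values was not tested beyond the subtraction given above.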

How the results depend on the processing

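The virus comparison is itself paired by origin, and no test was made within an origin, where each group holds 1 library. Fits that leave out 1 library assume that the lone library left in that origin varies like the others. The GC alternatives were chosen after seeing the data. Members called numbered 8 in cardiac against lung and 7 in cardiac against tail tip without the filter on low counts (5 and 4 with it), and 3 to 8 in cardiac against tail tip on leaving out 1 library. Calls over all genes moved too, to 7814 and 6916 without the filter (6967 and 6077 with it) and to between 3110 and 9208 in cardiac against tail tip on leaving out 1 library. Leaving out 1 library also moved the number of members called in cardiac against lung and in lung against tail tip. In cardiac against lung the members called rose in each of these fits. The calls over all genes fell in some of them and rose in others. Members past 2-fold within an origin numbered 2 with DESeq2 size factors and 1 after GC subtraction (4 before), when Ier2 turned to −0.051 in lung cells. GC offsets gave 6, 4 and 8 calls in the 3 origin comparisons. In cardiac against lung the calls over all genes were then 7578 (6967 in the main fit). The virus effect called 0 members under every alternative. Over all genes it called 141 with no filter on low counts and 36 without the tail tip pair. It called 3 without the cardiac pair and 0 without the lung pair or with GC offsets. Genes were also called on leaving out any 1 library, and the number was largest without either tail tip library. Junb turned to 0.003 without the cardiac pair and Egr1 to −0.004 without the lung pair. Leaving out 1 library gave −0.829 to 0.011 for Junb and −0.012 to 0.413 for Egr1. With Ad-GFP libraries alone, cardiac minus lung turned to 0.13 for Fosb and 0.18 for Ier2, and lung minus tail tip to −0.44 for Junb. With Ad-Cre libraries alone, cardiac minus lung turned to −0.18 for Atf3, and cardiac minus tail tip to −0.059 for Fosl1 and −0.19 for Ier2. Leaving out 1 library gave −0.30 to 1.09 for Atf3, −0.38 to 0.14 for Fosb and −1.42 to 0.078 for Ier2 in cardiac minus lung. It gave −0.23 to 0.91 for Fosl1, −0.11 to 1.02 for Egr2 and −0.34 to 1.17 for Ier2 in cardiac minus tail tip, and −0.89 to 0.10 for Egr2 and −0.61 to 0.76 for Junb in lung minus tail tip. The cause of these changes was not tested. Depth does not limit the members, whose lowest count was 88 reads, but 1 library per group does.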
